A study of Mus musculus with 58 samples.

Results

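The comparison described here set microglia of wild-type mice that had received a control antisense oligonucleotide against microglia of wild-type mice that had received phosphate-buffered saline (PBS). Its members were the 4 libraries labelled ntc and the 4 labelled PBS, 8 of the 58 libraries of the series, chosen by treatment label and not by any measured value. All 8 came from C57BL/6 mice of genotype WT, and both treatments are labelled as given into the cerebral ventricles (ICV). For the oligonucleotides, the protocol states a single injection and collection of the cells 14 days later. The same counts table holds 12 further wild-type libraries, 4 each from mice given an oligonucleotide against Mitf, Tfeb or Tfe3, called the targeting groups below. The sources used here give no sequence, chemistry or dose of the control oligonucleotide, no uninjected group, and neither age nor sex of the mice. They do not say that each library is a separate animal, so the spread between libraries may be partly technical.

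An antisense oligonucleotide (ASO) is a short, chemically modified strand that pairs with a complementary transcript. In many designs it recruits RNase H, which cuts that transcript. A non-targeting control has no intended transcript. Because PBS was given by the same route, the comparison covers what the control oligonucleotide adds to an injection. It does not cover effects of the injection itself. Microglia, the resident macrophages of the brain, take up oligonucleotides by endocytosis, and their endosomes hold the nucleic acid sensors TLR3, TLR7 and TLR9. Known responses to foreign nucleic acid include interferon-stimulated genes and NF-kB-driven cytokines, and some oligonucleotides bind nuclear and nucleolar proteins. MITF, TFEB and TFE3 belong to the MiT/TFE family of transcription factors, which control lysosomal genes.

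The 8 libraries held 16034082 to 24610279 counts with PBS and 16554404 to 30378870 with the control ASO. Levels below are CPM, that is, counts divided by the TMM-adjusted library size, and they compare libraries, not genes of different length. Titles carry a number called grp, from 1 to 4, and each grp has 1 library of every treatment, so the libraries form 4 pairs and grp was a block in the model. PBS library 4 is in grp 4 by its title, which was used, and in grp 3 by its column name. Across genes, log2 CPM correlated with r of 0.975 to 0.982 between PBS libraries, 0.967 to 0.982 between control ASO libraries and 0.971 to 0.988 between libraries of the 2 treatments. Some libraries stood apart for sets of genes. Control ASO library 3 had the highest levels of the 8 for Spp1, Apoe, Cst7, Itgax, Axl and C3, all genes of activated microglia. Both grp 1 libraries had the highest Fos of their treatment, an immediate early gene. PBS library 2 had the highest Enpp2, a gene abundant in choroid plexus. The main results that rest on 1 of these libraries are given with and without it.

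The sorted cells carried the defining transcripts of microglia at similar levels after both treatments. P2ry12, a purinergic receptor typical of microglia, was at 6999 to 9100 CPM with PBS and 7224 to 8610 CPM with the control ASO. The transmembrane protein gene Tmem119 was at 4485 to 5532 and 4820 to 5361 CPM, and the fractalkine receptor gene Cx3cr1 at 10739 to 11824 and 9626 to 11765 CPM. For 10 microglial markers (these, Csf1r, Sall1, Siglech, Fcrls, Gpr34, Itgam and Ptprc) the log2 difference lay between -0.05 and 0.06, and the ranges of the 2 treatments overlapped for each. The cells were sorted on CD11b, CD45 and CX3CR1, the products of Itgam, Ptprc and Cx3cr1. The levels of these genes are therefore not independent of the sort.

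No gene differed between control ASO and PBS at the threshold. Of 10277 genes tested with edgeR's quasi-likelihood test, 0 (0.00%) had a Benjamini-Hochberg adjusted p below 0.05, and the smallest adjusted p was 0.742. At an unadjusted p below 0.05 there were 415 genes (4.04%), 227 higher (2.21%) and 188 lower (1.83%) with the control ASO, and 69 genes had an unadjusted p below 0.01. The median log2 difference over all genes was -0.00, and the middle of the distribution, from the 5th to the 95th percentile, ran from -0.22 to 0.18. The 4 levels of each treatment did not overlap for 94 genes (0.915%), 41 higher (0.399%) and 53 lower (0.516%) with the control ASO. All 4 pairs were higher for 506 genes and lower for 494. Another count tool, DESeq2, called 2 genes, Gpx1 and Gm5931, which are described below, and limma on the authors' batch-corrected signal called 0.

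**Figure D1:**
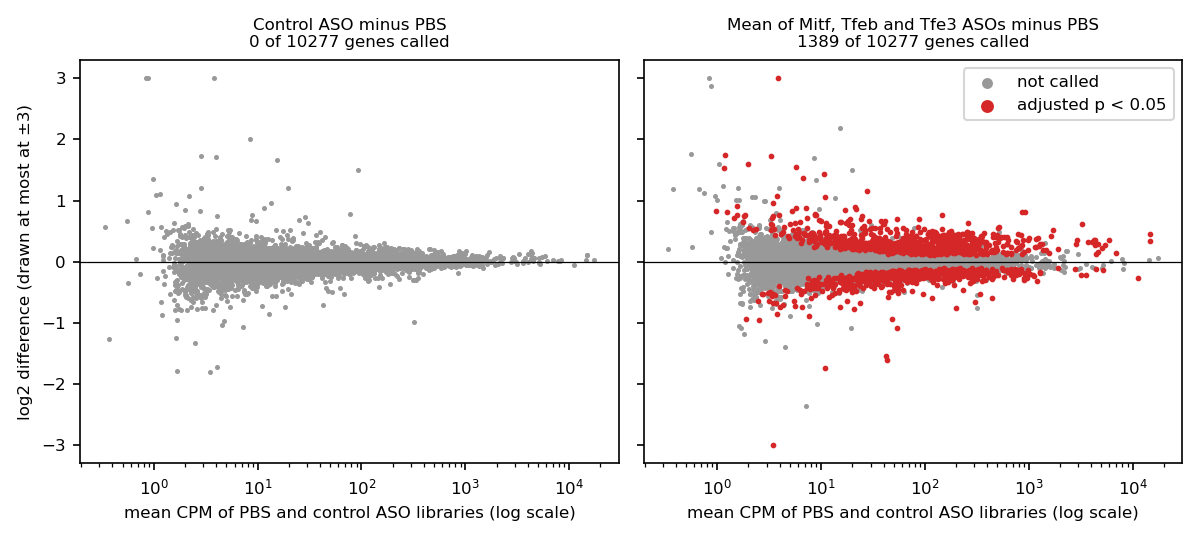
Log2 difference from PBS against mean level over the PBS and control ASO libraries (CPM, log axis), 1 point per gene, for the control ASO (left) and for the mean of the 3 targeting ASOs (right). Genes with an adjusted p below 0.05 are red: 0 of 10277 on the left and 1389 on the right.

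In the fit reported, unadjusted p-values were spread over the whole range, with no excess of low values in the plot of their counts. If no gene differed, 5% would be below 0.05, against the 4.04% observed. Without the grp block the number below 0.05 was 130. With PBS library 4 in grp 3, as its column name has it, the number was 658 and the smallest adjusted p 0.187. When 1 library was left out it ran from 313 (without control ASO library 1) to 791 (without PBS library 3). The number thus depended on the block and on single libraries, with 0 genes called in each of these fits.

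**Figure D2:**
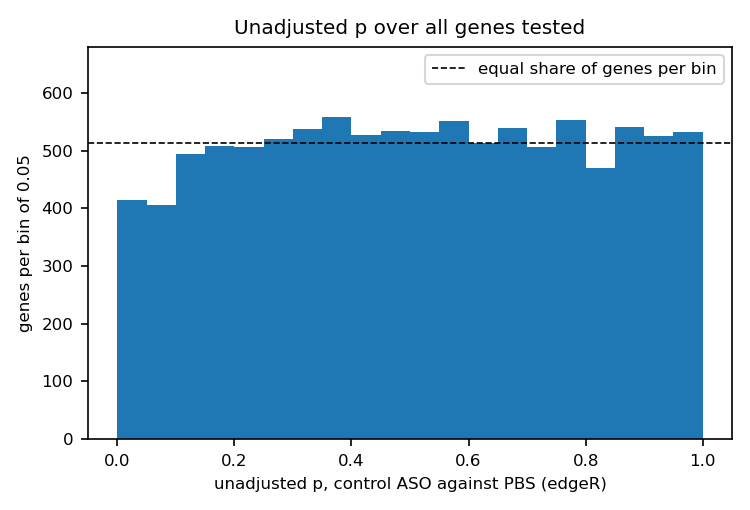
Number of genes per 0.05-wide bin of unadjusted p for control ASO against PBS, with the equal share per bin as a dashed line. The first bin holds 415 of 10277 genes and lies below the line.

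The width of the intervals shows how large a difference could have gone unseen. The 95% interval of the difference, unadjusted and per gene, lay inside a 2-fold change in either direction for 10052 genes (97.8%) and inside a 1.5-fold change for 9231 (89.8%). Its median half-width was 0.19 on the log2 scale. Precision followed the count: of 1088 genes with a mean below 100 counts, 933 had intervals inside 2-fold, against 5582 of 5646 between 100 and 1000 counts, 3259 of 3265 between 1000 and 10000, and 278 of 278 above 10000. A difference of over 2-fold was therefore outside the interval for nearly all genes with over 100 counts and for most, but not all, of those below.

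**Figure D3:**
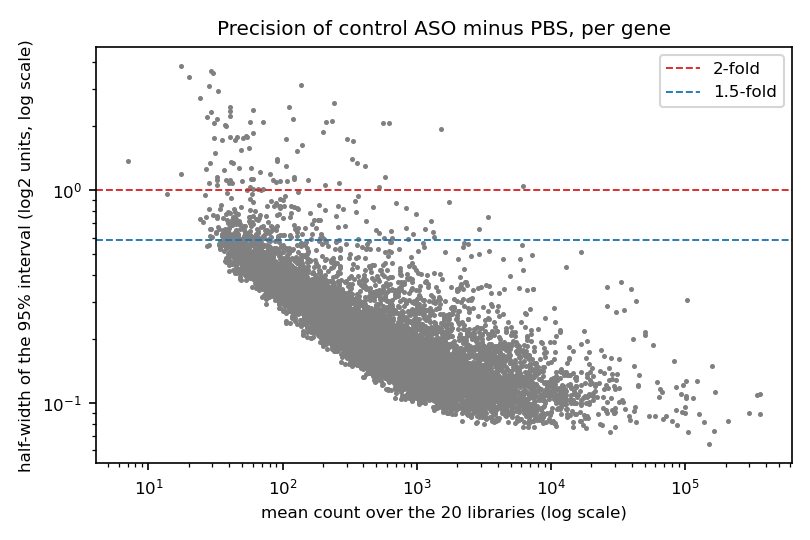
Half-width of the 95% interval of the log2 difference between control ASO and PBS (log axis) against the mean count over the 20 wild-type libraries (log axis), 1 point per gene, without Gm5931, which had 0 counts in all PBS libraries. Points below the dashed lines have half-widths under 2-fold or 1.5-fold, and the half-width narrows as the count grows.

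The transcripts that the targeting ASOs were made against were within or near the PBS range with the control ASO. Mitf (chr6:97807052-98021349, GRCm38) was at 38.4, 46.7, 42.5 and 43.9 CPM in PBS libraries 1 to 4 and at 34.5, 42.8, 47.3 and 50.4 CPM in control ASO libraries 1 to 4. Its log2 difference was 0.02 ± 0.09 (SE), with a 95% interval of -0.16 to 0.20. In the libraries of mice given the Mitf ASO it was at 1.01 to 2.15 CPM, below every PBS and control ASO library. Tfeb (chr17:47737030-47792419) was at 62.3, 49.7, 47.3 and 56.0 CPM with PBS and 54.2, 58.1, 52.6 and 54.7 CPM with the control ASO. The difference was 0.03 ± 0.07 (interval -0.11 to 0.17), and the Tfeb ASO libraries were at 4.59 to 6.91 CPM. Tfe3 (chrX:7762560-7775202) was at 219, 185, 185 and 209 CPM with PBS and 202, 192, 196 and 202 CPM with the control ASO. The difference was -0.01 ± 0.05 (interval -0.12 to 0.10), and the Tfe3 ASO libraries were at 34.9 to 40.5 CPM. For all 3 genes the PBS and control ASO libraries overlapped, and the sign of these small differences changed when single libraries were left out. Of 21 listed MiT/TFE factors and regulators in the table, 0 were called, 0 had an unadjusted p below 0.05, and the median difference was 0.02. All 21 intervals lay inside 1.5-fold. The smallest p in this list belonged to Rragc and Fnip2, both parts of the nutrient-sensing machinery at the lysosome, at 0.11 ± 0.06 and 0.14 ± 0.10.

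**Figure D4:**
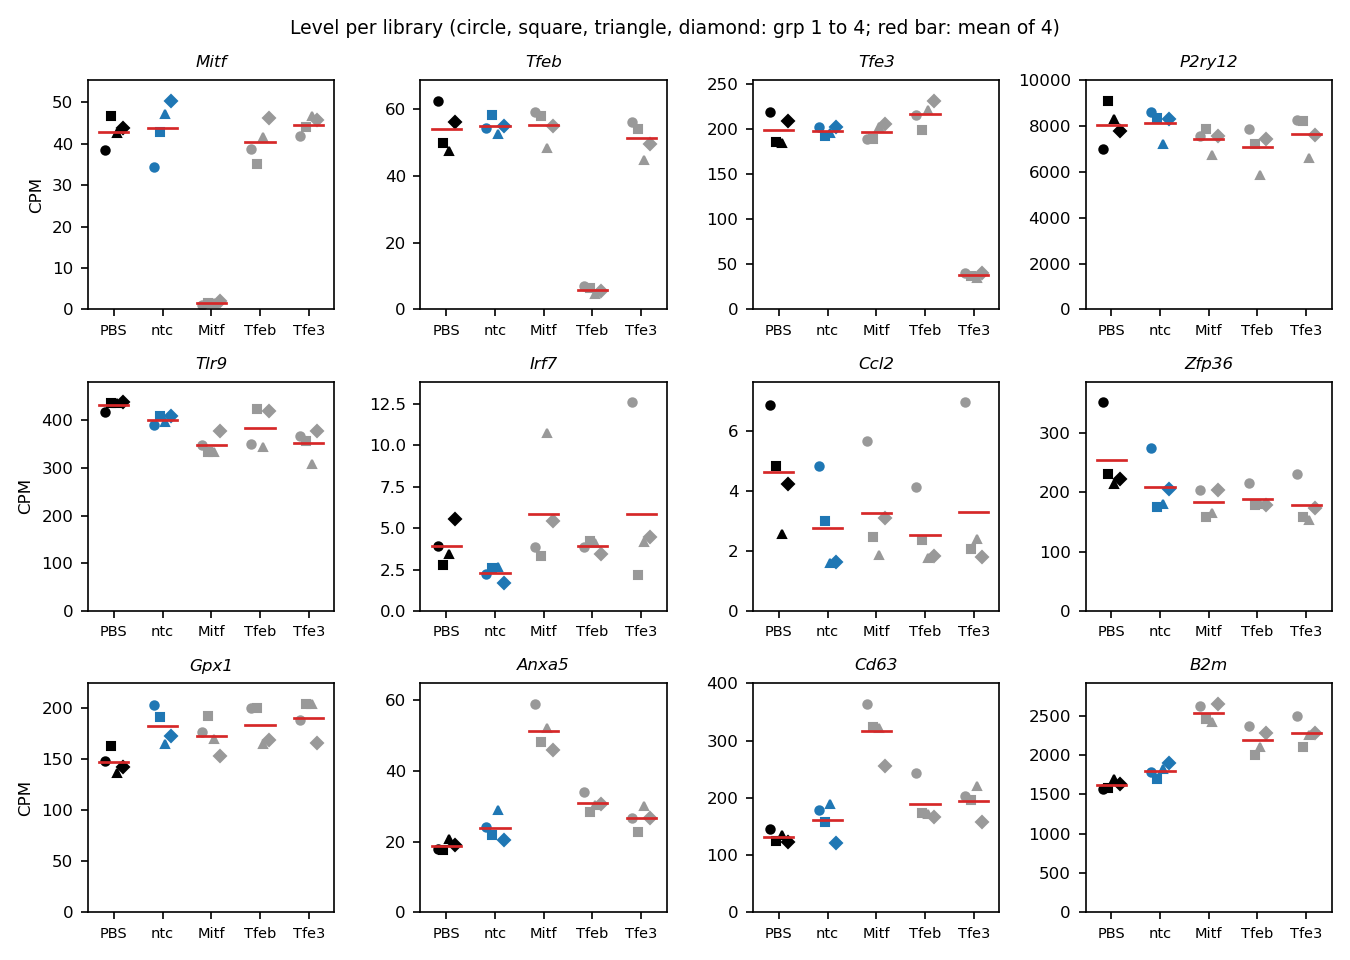
Level (CPM, axes from 0) of 12 genes in each library, by treatment: PBS (black), control ASO (ntc, blue) and the Mitf, Tfeb and Tfe3 ASOs (grey). Markers give the grp number and red bars the mean of 4. Mitf, Tfeb and Tfe3 are low only with their own ASO in this plot, while the control ASO libraries overlap the PBS libraries for 8 of the 12 genes and not for Gpx1, B2m, Tlr9 and Irf7.

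Among genes higher with the control ASO, Gpx1 had the smallest p. Gpx1 (chr9:108338903-108340343, plus strand), which encodes the peroxide-reducing glutathione peroxidase 1, was at 148, 164, 137 and 142 CPM with PBS and 204, 191, 165 and 173 CPM with the control ASO. Every control ASO library was above every PBS library. The log2 difference was 0.31 ± 0.06 (interval 0.18 to 0.44), with an unadjusted p of 7.22e-05 and an adjusted p of 0.742 in edgeR. In DESeq2 the same difference, 0.31, had an adjusted p of 0.0147. The targeting groups together were 0.30 above the same PBS libraries (edgeR adjusted p = 0.000544), and the control ASO differed from them by 0.01 (adjusted p = 0.966). Gpx1 was picked by its p against these PBS libraries, so the targeting value is not separate evidence. The high adjusted p does not show equal levels. Of 24 listed antioxidant targets of the transcription factor NRF2, 4 had an unadjusted p below 0.05, all higher (all genes: 2.21%). They were Gpx1, the ferritin chains Fth1 (0.14) and Ftl1 (0.17), and peroxiredoxin Prdx1 (0.16). The list median was 0.04 and 17 of the 24 were positive, against 47.8% of all genes.

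The other genes with the smallest p in this direction did not pass either. Anxa5 (chr3:36448923-36475894), a phospholipid-binding annexin, was at 17.8, 17.6, 20.7 and 19.0 CPM with PBS and 24.2, 22, 28.9 and 20.5 CPM with the control ASO. The control ASO library was higher in 4 of 4 pairs, with a log2 difference of 0.34 ± 0.09, but the lowest control ASO library lay just below the highest PBS library. Ly9 (chr1:171588624-171607410), a SLAM-family surface receptor, was at 27.8, 18.4, 22.2 and 23.5 CPM with PBS and 35.9, 25.6, 40.2 and 26.3 CPM with the control ASO, a difference of 0.47 ± 0.12 with overlapping groups. B2m (chr2:122147686-122153083), the light chain of MHC class I, was at 1574, 1581, 1695 and 1634 CPM with PBS and 1788, 1699, 1821 and 1893 CPM with the control ASO. Its groups did not overlap, by a small margin, and the difference was 0.15 ± 0.05. Nsa2, a ribosome biogenesis factor, was at 61.5 to 65.4 CPM with PBS and 66.6 to 79.7 CPM with the control ASO, again without overlap, at 0.19 ± 0.05. The remaining 3 were Rpl36a-ps2 (0.52), Rpl15-ps3 (0.69) and Gm2000 (0.35). Rpl36a-ps2 and Rpl15-ps3 are annotated as processed pseudogenes of ribosomal protein genes, so reads of the parent genes could be split onto them and their values are uncertain. Adjusted p-values were 1.0 for each of these genes but Gpx1.

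Of the 8 genes with the smallest p that were lower with the control ASO, all were lower in 4 of 4 pairs and 4 had groups that did not overlap. Choice by smallest p favours both traits, so neither is separate evidence for these genes. Over all 10277 genes, 494 were lower in all 4 pairs and 53 (0.516%) were lower without overlap. Cables2 (chr2:180258540-180273496), a CDK- and ABL-binding protein gene, was at 23.3, 17.1, 17.9 and 20.5 CPM with PBS and 15.6, 14.7, 15.1 and 15.9 CPM with the control ASO. The 4 control ASO libraries lay close together and below all PBS libraries, at -0.36 ± 0.09 (adjusted p = 1.0). Kansl3 (chr1:36335730-36369181), a subunit of a histone acetyltransferase complex, was at 25.4 to 31.6 CPM with PBS and 18.8 to 24.9 CPM with the control ASO, at -0.36 ± 0.09. Rarg, the retinoic acid receptor gamma gene, was at 2.28 to 3.37 and 1.42 to 1.84 CPM (-0.74 ± 0.19). Znhit6, an assembly factor of small nucleolar ribonucleoproteins, was at 2.88 to 4.44 and 1.96 to 2.5 CPM (-0.65 ± 0.18). The E3 ligase gene Rnf24 (-0.34 ± 0.08), the membrane metalloproteinase gene Mmp14 (-0.32 ± 0.08), Ccl2 and Zfp36 had overlapping groups. Against the same PBS libraries the targeting groups were also lower for Cables2 (-0.43, adjusted p = 0.000416), Kansl3 (-0.32, 0.00779), Rnf24 (-0.26, 0.0148), Mmp14 (-0.47, 0.000129), Zfp36 (-0.46, 9.39e-05) and Ccl2 (-0.67, 0.0148). Rarg (-0.43, 0.0674) and Znhit6 (-0.25, 0.269) did not pass. The 2 comparisons share the PBS libraries, so these values are not separate evidence. The control ASO itself did not differ from the targeting groups at the threshold for any of the 8 genes.

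Sensors of nucleic acid differed little. Of 33 listed genes in the table (36 listed), 0 were called, 1 had an unadjusted p below 0.05, the median difference was 0.00, and all 33 intervals lay inside 1.5-fold. That 1 gene was Slc15a3, an endolysosomal transporter, at 200, 152, 134 and 153 CPM with PBS and 172, 140, 125 and 135 CPM with the control ASO (-0.15 ± 0.07, unadjusted p = 0.0326). Tlr9, the endosomal receptor of CpG DNA, was at 418, 436, 436 and 438 CPM with PBS and 390, 409, 396 and 409 CPM with the control ASO. Every control ASO library was below every PBS library, by a small step of -0.11 ± 0.06 (unadjusted p = 0.0737). The targeting groups were 0.26 lower than PBS on the log2 scale for Tlr9 (-0.26, adjusted p = 0.00102), and the control ASO did not differ from them at the threshold (0.15, adjusted p = 0.0695). The PBS libraries are the same in both comparisons with PBS, so the targeting value is not separate evidence. Tlr7, a receptor of single-stranded RNA, was at 750 to 1222 CPM with PBS and 853 to 1082 CPM with the control ASO (0.03 ± 0.10). Tlr3, which binds double-stranded RNA, differed by -0.01 ± 0.06 and the cytosolic DNA sensor gene Cgas by 0.03 ± 0.08. Rnaseh1, whose product cuts RNA in DNA hybrids and carries out the cleavage step of many ASO designs, differed by -0.18 (unadjusted p = 0.220).

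Interferon-stimulated genes in the table were not higher with the control ASO. Strongly inducible listed genes such as Isg15, Mx1, Mx2, Oas2, Oas3, Ifi44, Zbp1 and Cxcl10 are not in the table. They were therefore not tested, and the values below do not cover them. Of 29 in the table (42 listed), 0 were called, 0 had an unadjusted p below 0.05, and 28 had a negative difference, with a median of -0.11 against -0.00 over all genes. These genes vary together, so the 28 are not 28 separate observations. Irf7, a transcription factor of the interferon response, was at 3.94, 2.76, 3.44 and 5.54 CPM with PBS and 2.24, 2.61, 2.63 and 1.71 CPM with the control ASO. No control ASO library reached the lowest PBS library, but the levels are low and the interval of the -0.76 ± 0.42 difference ran from -1.64 to 0.11. Ifit3, an interferon-induced antiviral protein gene, was at 6.98, 7.35, 9.13 and 13.7 CPM with PBS and 7.75, 6.79, 7.59 and 4.60 CPM with the control ASO (-0.53 ± 0.35), with 1 of 4 pairs higher. PBS library 4 had the highest Irf7 and Ifit3 of the 8 libraries. Without it the difference was -0.45 for Irf7 and -0.10 for Ifit3, 23 of the 29 genes were negative and the median was -0.04, and without PBS library 1 the median was -0.20 with 3 genes lower at an unadjusted p below 0.05. Without PBS library 3 it was -0.17, and with PBS library 4 in grp 3 it was -0.05. Within the pairs, the median was 0.10, -0.07, -0.13 and -0.21 for grp 1 to 4. Intervals of 20 of the 29 genes lay inside 2-fold. Of 9 interferon-induced GTPase genes of the IRG and GBP families, 0 had an unadjusted p below 0.05 and the median was -0.05, with the smallest p for Gbp3 (-0.21 ± 0.11) and Gbp7 (-0.21 ± 0.15).

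Inflammatory cytokine and NF-kB genes in the table were not higher either. Listed genes not in the table, and so not tested, include Ccl5, Ccl7, Cxcl1, Cxcl2, Ptgs2, Nos2, Il1rn and Cd40. Of 25 in the table (34 listed), 0 were called and 1, Ccl2, had an unadjusted p below 0.05, on the lower side. The median was -0.05. Ccl2, a chemokine that attracts monocytes, was at 6.89, 4.84, 2.56 and 4.23 CPM with PBS and 4.85, 2.99, 1.61 and 1.64 CPM with the control ASO. The control ASO library was the lower one in all 4 pairs while the groups overlapped, and the difference was -0.80 ± 0.22 (adjusted p = 1.0). Targeting groups were lower than the same PBS libraries as well (-0.67, adjusted p = 0.0148), which is not separate evidence. Nfkbiz, an inducible IkB family member, was at 16.1, 6.01, 3.20 and 3.63 CPM with PBS and 9.82, 3.80, 3.41 and 2.92 CPM with the control ASO (-0.46 ± 0.24). Its level was highest in grp 1 under both treatments, and the difference was -0.21 without PBS library 1. The cytokine genes Tnf (-0.29), Il1b (-0.12) and Il6 (-0.05) had unadjusted p-values of 0.427, 0.709 and 0.798.

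Immediate early and stress genes that respond to tissue dissociation had more low values of p than most lists, without passing the test. Of 30 in the table (34 listed), 0 were called, 8 had an unadjusted p below 0.05, all lower with the control ASO (all genes: 1.83%), and the median was -0.10. As the same libraries gave all of them, the 8 are not 8 separate observations. The 8 were Zfp36, Junb, Dusp1, Fos, Egr1, Jun, Fosb and Nfkbid. Fos, an AP-1 subunit, was at 126, 34.7, 28.7 and 28.4 CPM with PBS and 59.7, 19.2, 20.3 and 23.9 CPM with the control ASO. The grp 1 library was the highest under both treatments, each pair was lower with the control ASO, and the difference was -0.71 ± 0.24 (adjusted p = 1.0). Without PBS library 1 it was -0.53, and without control ASO library 1 it was -0.69. Zfp36, which encodes the mRNA-decay factor tristetraprolin, was at 351, 231, 213 and 222 CPM with PBS and 274, 175, 181 and 205 CPM with the control ASO (-0.28 ± 0.08). The phosphatase gene Dusp1 was at 33.0, 13.9, 13.8 and 11.4 CPM with PBS and 21.2, 7.36, 9.57 and 10.9 CPM with the control ASO (-0.56 ± 0.19). For all 3 genes the control ASO library was lower in every pair and the groups overlapped. Without PBS library 1, 3 of the 30 had an unadjusted p below 0.05 on the lower side. Without control ASO library 2 there were 5 and without control ASO library 4 there were 4, and with no block there were 0. The list median was -0.05 without PBS library 1, -0.15 without PBS library 3, and -0.16, -0.06 and -0.02 without control ASO libraries 1, 2 and 3. With no block it was -0.05 and on the batch-corrected signal -0.04. Hspa1b, an inducible HSP70 gene, had the highest difference of the list at 0.66. How long each sample took to process was not given in the sources used here, and its part in these values was not tested.

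Genes of disease-associated microglia (DAM), a lysosomal and lipid-handling state seen in neurodegeneration models, had a list median slightly above 0, with no member passing the test. Listed genes not in the table, and so not tested, include Gpnmb, Lgals3, Fabp5, Ch25h and Lilrb4a. Of 33 in the table (44 listed), 0 were called and 8 had an unadjusted p below 0.05, all higher (all genes: 2.21%). The median was 0.11 and 30 were positive, against 47.8% of all genes. All members were measured in the same libraries, so these are not separate observations. The 8 were Anxa5, B2m, Cd63, Npc2, Ctsb, Tyrobp, Fth1 and Ctsd. Other DAM genes differed by 0.04 (Trem2), 0.05 (Axl), 0.01 (Lpl), 0.19 (Clec7a), 0.17 (Itgax) and 0.23 (Apoe). Their unadjusted p-values ran from 0.435 to 0.982. Cd63, a tetraspanin of late endosomes, was at 146, 125, 134 and 123 CPM with PBS and 178, 158, 188 and 121 CPM with the control ASO. It was higher in 3 of 4 pairs and level in grp 4, at 0.27 ± 0.08. Fth1, the heavy chain of ferritin, was at 899, 890, 878 and 874 CPM with PBS and 958, 1016, 1014 and 922 CPM with the control ASO. These groups did not overlap, with a difference of 0.14 ± 0.06. Ctsb, a lysosomal cysteine protease gene, was at 3423, 2886, 3126 and 3045 CPM with PBS and 3482, 3172, 3770 and 3151 CPM with the control ASO (0.12 ± 0.04). Cst7, a cysteine protease inhibitor gene and classic DAM marker, was at 10.5, 7.84, 7.76 and 9.68 CPM with PBS and 7.25, 9.22, 24.1 and 9.03 CPM with the control ASO. Only library 3 of the control ASO lay above the PBS range, and the difference was 0.41 ± 0.26, or -0.04 without that library. Spp1, the osteopontin gene, showed the same library more sharply: 2.45, 4.04, 1.16 and 4.51 CPM with PBS, and 2.62, 6.27, 45.1 and 1.67 CPM with the control ASO. Its difference of 2.01 had an interval of -0.09 to 4.10, was 0.41 without control ASO library 3 and 1.35 without PBS library 3, and was chosen for mention after its values were seen.

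The DAM list leaned on that library. Without control ASO library 3, 21 of the 33 genes were positive, the median was 0.05, and 5 had an unadjusted p below 0.05 on the higher side. Without control ASO library 4 there were 12, and with no block 3. Within pairs the median was 0.08, 0.14, 0.22 and -0.02 for grp 1 to 4. In the targeting groups 18 of the 33 genes were called higher than PBS and 1 lower, with a median of 0.39 (all genes: 7.40% higher and 6.11% lower). The control ASO against the targeting groups, which tests that gap directly, gave 17 genes lower and 1 higher, with a median of -0.31 (all genes: 3.08% lower and 2.11% higher). Cst7 was 1.02 below the targeting groups on the log2 scale (-1.02, adjusted p = 0.00970), Anxa5 was at -0.55 (0.000141) and Cd63 at -0.50 (0.000419). These values average groups that differed. With the Mitf, Tfeb and Tfe3 ASOs, mean CPM was 32.7, 15.9 and 27.1 for Cst7 and 51.2, 30.9 and 26.6 for Anxa5. For Cd63 it was 316, 188 and 195. For each of these genes all Mitf ASO libraries were above all control ASO libraries, while the Tfeb and Tfe3 ASO libraries overlapped them.

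Lysosomal genes also had a median above 0, a smaller one. Of 80 in the table (85 listed), 0 were called and 7 had an unadjusted p below 0.05, all higher (all genes: 2.21%). The median was 0.06 and 63 were positive, against 47.8% of all genes. These counts are not separate observations, because all members come from the same libraries. All 80 intervals lay inside 1.5-fold. Besides Cd63, Npc2, Ctsb and Ctsd, the 7 were Man2b1 (0.11), Hexa (0.11) and Ctss (0.09), which encode an alpha-mannosidase, a beta-hexosaminidase subunit and cathepsin S. Npc2, a lysosomal cholesterol carrier gene, was at 515, 477, 483 and 469 CPM with PBS and 557, 558, 557 and 477 CPM with the control ASO (0.14 ± 0.05). 3 of its control ASO libraries nearly coincided above all PBS libraries and library 4 lay within the PBS range. Ctsd, the cathepsin D gene, was at 15190, 13443, 13623 and 14529 CPM with PBS and 15449, 14639, 16052 and 14778 CPM with the control ASO (0.10 ± 0.04), with overlap. Lamp1, a membrane protein of the lysosome, differed by 0.09 ± 0.04. Without PBS library 1, 46 of the 80 were positive and the median was 0.02, and without PBS library 3 these were 72 and 0.09. With no block 0 of the 80 had an unadjusted p below 0.05. In the targeting groups 36 of the 80 were called higher than PBS and 0 lower (median 0.11), against 7.40% and 6.11% of all genes. With the control ASO, 27 were called lower than in the targeting groups and 0 higher, against 3.08% and 2.11% of all genes.

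**Figure D5:**
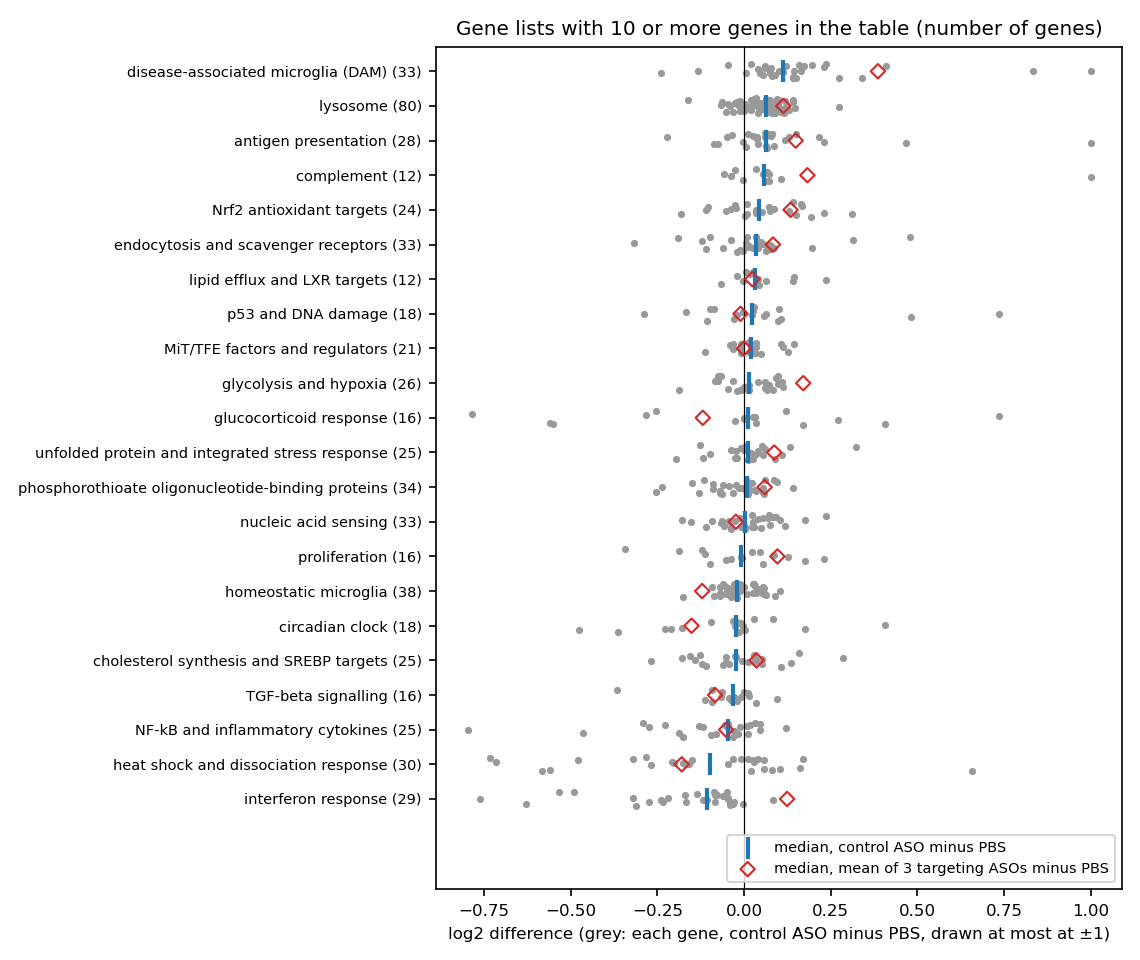
Log2 difference between control ASO and PBS of each gene (grey), by gene list, with the list median (blue bar) and the median for the 3 targeting ASOs against PBS (red diamond). Lists with fewer than 10 genes in the table are left out, lists share genes, and values are drawn at most at -1 and 1. The control ASO medians of the lists drawn lie between -0.11 for interferon response and 0.11 for DAM.

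Genes of the resting state of microglia differed little. Of 38 homeostatic genes in the table (39 listed), 0 were called and 1, Jun, had an unadjusted p below 0.05, lower (-0.18 ± 0.08). The median was -0.02 and all 38 intervals lay inside 1.5-fold. The targeting groups had 16 of these genes called lower than PBS and 4 higher, with a median of -0.12 (all genes: 6.11% lower and 7.40% higher). Tested directly, the control ASO had 8 called higher than the targeting groups and 2 lower (all genes: 2.11% higher and 3.08% lower). Cx3cr1 was 0.21 above the targeting groups (adjusted p = 0.000694), while the control ASO and PBS libraries overlapped (-0.05 ± 0.04).

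Antigen presentation and complement genes were near PBS levels in most members. Of 28 antigen presentation genes, 2 had an unadjusted p below 0.05, B2m and Ctss, both higher (all genes: 2.21%). The median was 0.06 with 22 positive, and without control ASO library 2 these were 0.01 and 15. Without PBS library 2 they were 0.03 and 17, and with PBS library 4 in grp 3 they were 0.10 and 22. H2-Aa, an MHC class II chain gene, was at 1.41, 1.29, 2.0 and 1.86 CPM with PBS and 0.709, 10.4, 3.23 and 1.97 CPM with the control ASO, so that 1 library set its difference of 1.2 (interval -0.07 to 2.47), which was -0.01 without control ASO library 2. Of 12 complement genes, 1 had an unadjusted p below 0.05, and the median was 0.06. It was C3, the central complement component, at 0.499, 0.368, 0.560 and 1.26 CPM with PBS and 0.873, 0.713, 4.42 and 0.558 CPM with the control ASO. Library 3 was again the high one, and the difference of 1.11 was 0.15 without it.

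Proteins known to bind phosphorothioate oligonucleotides, a common ASO chemistry, were examined at the transcript level, although the sources used here do not state the chemistry. Of 34 in the table (35 listed), 0 were called, 2 had an unadjusted p below 0.05, both lower (all genes: 1.83%), and the median was 0.01. All 34 intervals lay inside 1.5-fold, 18 of the 34 differences were positive, and the highest was 0.14 for Rps3. The 2 were Nop56, at 32.0 to 46.2 CPM with PBS and 27.1 to 35.8 CPM with the control ASO (-0.25 ± 0.09), and Nop58, at 18.9 to 25.1 and 17.7 to 20.6 CPM (-0.24 ± 0.11). Both are core proteins of box C/D small nucleolar ribonucleoproteins, both were lower in 4 of 4 pairs, and both had overlapping groups. Fbl, another protein of these particles, differed by -0.09 and the nucleolin gene Ncl by -0.15. Of 33 endocytosis and scavenger receptor genes, 1 had an unadjusted p below 0.05, the mannose receptor gene Mrc1 at 0.31 ± 0.15, and the median was 0.03.

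Stress pathways were close to PBS in their list medians. Of 25 genes of the unfolded protein and integrated stress response, 1 had an unadjusted p below 0.05. It was Psat1, a serine synthesis enzyme gene, at 59.2, 40.9, 45.9 and 44.2 CPM with PBS and 68.4, 45.3, 68.6 and 55.5 CPM with the control ASO, higher in 4 of 4 pairs (0.32 ± 0.10). The median was 0.01, and the chaperone gene Hspa5 differed by 0.01 and Atf4 by -0.03. Of 18 p53 and DNA damage genes, 3 had an unadjusted p below 0.05 in mixed directions (all genes: 4.04%), and the median was 0.02. They were Plk3 (-0.29 ± 0.09), Perp (0.48 ± 0.20) and Ccng1 (0.11). Cdkn1a, the p21 gene, differed by -0.17 with an unadjusted p of 0.288. Of 16 proliferation genes, 1 had an unadjusted p below 0.05, Pcna (0.13 ± 0.05), and the median was -0.01.

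Metabolic and timing lists also had medians within 0.05 of 0. For 25 cholesterol synthesis genes the median was -0.02 and 1, Acat2, had an unadjusted p below 0.05, at 8.40 to 9.93 CPM with PBS and 11.0 to 11.8 CPM with the control ASO, without overlap (0.28 ± 0.13). For 12 lipid efflux genes the median was 0.03, and for 26 glycolysis and hypoxia genes 0.01, with Pkm, the pyruvate kinase gene, at 0.11 ± 0.05. Of 18 clock genes, Bhlhe41 (-0.18 ± 0.06) and Per3 (-0.36 ± 0.13) had an unadjusted p below 0.05, both lower (all genes: 1.83%), and the median was -0.02. Of 16 glucocorticoid response genes, which follow stress hormones, Zfp36 and Dusp1 had an unadjusted p below 0.05, both lower (all genes: 1.83%). Both are also on the dissociation list, while Fkbp5 differed by 0.03 and Tsc22d3 by 0.27. Of 16 TGF-beta signalling genes, 1 had an unadjusted p below 0.05, the inhibitory Smad6 (-0.37 ± 0.17).

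Transcripts of other brain cell types were few in this table of 10277 genes. In bulk RNA, fewer cells of a type and less RNA per cell cannot be told apart. The number of listed markers in the table was 5 of 16 for border macrophages, 5 of 25 for monocytes and neutrophils, 3 of 25 for lymphocytes, 2 of 15 for astrocytes, 4 of 16 for oligodendrocytes, 1 of 16 for neurons, 4 of 16 for endothelial and mural cells and 3 of 12 for choroid plexus. None was called, and at an unadjusted p below 0.05 there were Mrc1 (above), the neuronal Camk2a (0.35 ± 0.15) and Bsg (0.11 ± 0.05), which is abundant in endothelium. Summed levels overlapped between treatments for each of these lists, for example 389 to 559 CPM with PBS and 346 to 525 CPM with the control ASO for monocytes and neutrophils. Several sums rest on few genes, so their overlap says little about the cell type. Slc1a3 made up most of the astrocyte sum and Ighm of the lymphocyte sum. Bsg and Pecam1 made up most of the endothelial sum, and Camk2a all of the neuronal one. For choroid plexus the sums were 12.5 to 122 and 11.7 to 57.1 CPM. Enpp2 accounted for much of that range, with 7.93, 70.2, 10.7 and 7.12 CPM with PBS and 9.82, 28.1, 5.26 and 7.88 CPM with the control ASO, so that grp 2 was the high one under both treatments. Its difference of -0.74 had an interval of -1.63 to 0.16 and was -0.13 without PBS library 2. The part of these cells in other results was not tested. 4 Y-linked genes were present in all 8 libraries, with summed levels of 114 to 154 CPM with PBS and 117 to 165 CPM with the control ASO.

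Large differences were few. Of 10277 genes, 22 had a log2 difference beyond 1 in either direction, 15 of them with a mean below 100 counts, and edgeR called none of them. Gm5931, a predicted gene, had 0 counts in all 4 PBS libraries and 181 in the control ASO libraries, of which libraries 1 to 4 held 1.15, 0, 0.598 and 4.93 CPM. The mean of the control ASO libraries was 47.2-fold above a floor of 3 counts pooled over the PBS group. This bound covers counting only and not the spread between libraries, and control ASO library 2 had 0 counts like PBS. Library 4 carried most of that mean, and without it the bound was 16.4-fold. It was also seen at up to 4.1 CPM in single libraries of the targeting groups and at 0 in others. DESeq2 called it (adjusted p = 1.94e-07) and edgeR did not. It was named after its values were seen.

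Set beside the same PBS libraries in the same fit, the 3 targeting groups together had 1389 genes called (13.5%), 761 higher (7.40%) and 628 lower (6.11%). On the batch-corrected signal, 579 were higher and 294 lower. The control ASO, compared directly with the targeting groups, had 534 genes called (5.20%), 217 higher (2.11%) and 317 lower (3.08%), with 83 and 188 on the batch-corrected signal. With no block these counts were 358 and 67. The first was 811 without PBS library 2, and the second was 195, 224, 337 and 199 without control ASO libraries 1, 2, 3 and 4. The mean of 12 targeting libraries is more precise than the mean of 4 control ASO libraries, so the number of calls against PBS is not on an equal footing. B2m is an example: 1574 to 1695 CPM with PBS, 1699 to 1893 with the control ASO, and a minimum of 1997 in any targeting library. The control ASO was below the targeting groups (-0.37, adjusted p = 1.19e-05). Its difference of 0.15 from PBS was not called. B2m was also picked by its p against these PBS libraries, so its place above PBS is not separate evidence. Fos was at 28.4 to 126 CPM with PBS, 19.2 to 59.7 with the control ASO and 4.42 to 40.0 in the targeting groups, with the control ASO 0.82 above the latter (adjusted p = 0.0233). For Gpx1, Cables2 and Tlr9 the control ASO did not differ from the targeting groups at the threshold.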

How the data were processed

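PolyA RNA-seq of sorted forebrain microglia (CD11b+, CD45low, CX3CR1+) was measured with stranded, single-end libraries, per the labels' protocols. As deposited, the table of wild-type ASO libraries holds raw counts of 10277 genes, and the authors also give a normalised, batch-corrected signal per gene, whose method is not given in the sources used here. STAR 2.5.3a, kallisto 0.44.0, HOMER 4.11, DESeq2 1.36.0, R 4.2.3 and mm10 are named in the submitters' processing notes, which do not say which tool made the counts. Each gene of the counts table is seen in 8 libraries or more, and the smallest mean is 7.05 counts. The filter behind this is not given in the sources used here, and genes outside the table were not tested. 10 symbols occur more than once and were kept apart by identifier. Coordinates are those of GENCODE M21 (GRCm38), in which 10272 of 10277 identifiers were found.

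Counts were tested with edgeR 4.0.16 in R 4.3.3 (quasi-likelihood F test). Scaling was by TMM, and filterByExpr, whose minimum was 10 counts, kept all 10277 genes. The model held group and grp as block over all 20 libraries of the 5 wild-type groups, so that they share 1 estimate of the spread, with Benjamini-Hochberg adjustment over all genes and a threshold of 0.05. SE and 95% intervals come from the same fit. Intervals and floors cover neither multiple testing nor errors before counting, and floors also leave out the spread between libraries. The grp numbers pair the libraries: after removal of group means, control ASO and PBS libraries of the same number correlated across genes with r of 0.340, 0.258, 0.122 and 0.426. The numbers come from the titles, and libraries of different numbers gave -0.413 to 0.165, the highest for control ASO library 3 with PBS library 4. No 2 of the 8 libraries agreed within sampling noise. The test was also run on simulated counts with planted changes of 2-fold or more and no grp effect. That run does not bear on smaller differences or on the block.

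Alternatives were no block, only the 8 libraries, RLE factors, DESeq2 1.42.0, no filter, a mean of at least 100 counts, limma 3.58.1 on log2(signal + 1) and log2(signal + 10), PBS library 4 in grp 3, and each library left out. 2 were added after seeing the data: a covariate of 4 Y-linked genes, in place of a planned one that needs Xist, and leaving out the grp 4 pair.

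The 32 gene lists and the comparisons were chosen with earlier results of these data known, so no list is independent support. Lists are described by counts and medians beside all genes, without a test. Where no share is printed beside a list, the shares over all genes at an unadjusted p below 0.05 were 2.21% higher and 1.83% lower. The share of all genes with a positive difference was 47.8%. Members of a list share the same libraries, so counts of members are not counts of separate observations. Named genes were those called, which gave none, then the 8 with the smallest unadjusted p in each direction, Mitf, Tfeb and Tfe3, and the 2 members with the smallest p of each list. Other genes are background for a list or a cell type, and Spp1, H2-Aa, Fos and Gm5931 were picked after their values were seen.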

Additional observations from a re-analysis of the deposited data

Results flagged for a closer look

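Within each treatment, 146 sets of 4 libraries (1 named gene in 1 treatment) were screened for a library whose gap to the nearest other exceeds Dixon's critical value of 0.829 of the range. Chance flags about 1 in 20 such sets, and 17 were found.

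In the PBS group, library 1 was high for Zfp36 (351 CPM, others 213 to 231), Dusp1 (33.0, others 11.4 to 13.9), the glutamate transporter gene Slc1a2 (11.1, others 4.16 to 4.72) and the oligodendrocyte gene Mobp (1.90, others 0.558 to 0.720). It was low for Tlr9 (418 CPM, others 436 to 438). PBS library 2 was high for 3 genes: the mTORC1 regulator gene Fnip2 (143 CPM, others 118 to 122), Enpp2 (70.2, others 7.12 to 10.7) and Kl (7.17, others 1.72 to 2.52), the latter 2 being choroid plexus markers. PBS library 3 was high for the astrocyte transporter gene Slc1a3 (382 CPM, others 203 to 232).

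In the control ASO group, library 1 was high for Mmp14 (47.6 CPM, others 43.3 to 43.8), Nfkbiz (9.82, others 2.92 to 3.80) and Rragc (150 CPM, others 116 to 121). Library 3 was high for C3 (4.42 CPM, others 0.558 to 0.873) and low for the chaperone gene Calr (1212, others 1416 to 1455), the tubulin regulator gene Stmn1 (13.2, others 15.1 to 15.4) and the Y-linked demethylase gene Kdm5d (17.9, others 23.2 to 23.6). Library 4 was low for Npc2 (477 CPM, others 557 to 558).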

How the results depend on the processing

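Control ASO against PBS had 0 genes called in the fit reported and under every alternative run but DESeq2, which called 2; leaving out each library gave 0 to 0. The planned covariate with Xist was not run. In the same fits, the targeting groups against PBS had 1389 genes called, 358 with no replicate block, 873 and 874 on the batch-corrected signal with pseudocounts of 1 and 10, and 811 (without PBS library 2) to 1348 without 1 library. The control ASO against the targeting groups had 534, with 67 under no replicate block, 271 and 269 on the signal, 235 without the grp 4 pair and 195 to 765 without 1 library. Its count fell by over 1.5 times without each of control ASO libraries 1 (195), 2 (224), 3 (337) and 4 (199).

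Of 608 alternative values of list medians, 12 moved beyond the spread between pairs. The lipid efflux median, 0.03, was 0.057 and 0.057 on the signal, -0.0064 with PBS library 4 in grp 3, and 0.011 to 0.062 without 1 library. For oligodendrocytes, -0.00, it was 0.040 and 0.039 on the signal. Without 1 library the medians ran from 0.0013 to 0.024 for nucleic acid sensing, -0.024 to 0.052 for p53, -0.054 to 0.057 for cholesterol synthesis and -0.077 to 0.19 for astrocytes. Of 1374 alternative values of named genes, 1351 kept their sign and side of the threshold, Gpx1 was called once (in DESeq2), and 22 changed sign. Without the grp 4 pair these were Tfe3 (0.0057), Mitf (-0.041), Kdm5d (-0.021) and Ddx3y (-0.030). Mitf was -0.014 with PBS library 4 in grp 3 and Slc1a2 was 0.019 in only the 8 libraries. Without 1 library the ranges were -0.041 to 0.036 for Tfe3, -0.028 to 0.091 for Tfeb, -0.027 to 0.086 for Mitf, -0.35 to 0.0027 for Gbp7, -0.11 to 0.39 for Klrd1, -0.0098 to 0.078 for Ighm, -0.016 to 0.17 for Slc1a3, -0.24 to 0.39 for Slc1a2 and -0.023 to 0.20 for Ddx3y. The causes were not tested. Depth limits genes with means under 100 counts, where 933 of 1088 intervals lay inside 2-fold.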
